A study of Homo sapiens with 6 samples.

Results

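The sirtuins are a family of human genes numbered *SIRT1* to *SIRT7*, and the members described here are the 6 of these 7 that were read by symbol from the deposited count table of 59050 genes (*SIRT1*, *SIRT2*, *SIRT3*, *SIRT4*, *SIRT5* and *SIRT7*). *SIRT6* was not analysed here. The rule that chose the members is by gene name and uses no measured value, and the mitochondrial ones (*SIRT3*, *SIRT4*, *SIRT5*) are set beside the others (*SIRT1*, *SIRT2*, *SIRT7*). The RNA came from the human embryonic stem cell line HUES8, an established line, sampled at 3 stages with 2 libraries each. The PSC libraries are undifferentiated cells kept in mTeSR1 on Matrigel. The D2 libraries are cells on day 2 of endoderm induction, and the DE libraries are definitive endoderm cells, whose labels name no day. Both differentiated stages received 100 ng/mL of activin A, which signals through SMAD2 and SMAD3, together with the GSK3 inhibitor CHIR99021 during the starting 24 h, and then activin A without CHIR99021. The labels and the study's methods give the CHIR99021 concentration in different units, so it is not printed. All libraries are of this single cell line, and no source used here says that replicates came from separate cultures. The p-values therefore measure the spread between these libraries, which may be technical. For each gene that spread is in part borrowed from other genes by the test. The total counts were 12351684 and 15849872 in PSC, 15000970 and 14843365 at D2, and 15490713 and 15970973 in DE.

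Sirtuins remove acetyl and other acyl groups from lysine side chains and consume NAD in each round of the reaction, so that their activity follows the supply of NAD. SIRT1 and SIRT7 are mainly nuclear, the latter in the nucleolus, and SIRT2 is mainly cytosolic. SIRT3, SIRT4 and SIRT5 are imported into mitochondria, where SIRT3 is the main deacetylase and SIRT5 removes succinyl, malonyl and glutaryl groups.

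The 6 genes lie on different chromosomes of GRCh38 in GENCODE version 44: *SIRT1* on chromosome 10 (67884656 to 67918390, plus strand), *SIRT2* on chromosome 19 (38878555 to 38899862, minus strand), *SIRT3* on chromosome 11 (215030 to 236931, minus strand), *SIRT4* on chromosome 12 (120302316 to 120313249, plus strand), *SIRT5* on chromosome 6 (13574227 to 13615158, plus strand) and *SIRT7* on chromosome 17 (81911939 to 81921323, minus strand). RefSeq promoter windows (GRCh38.p14) were found for 5 of the 6. The windows of *SIRT1* and *SIRT4* are shown because these genes had the highest and the lowest mean level of the 6 in PSC. Capitals mark letters that match a motif on either strand. The motifs searched were the GC box, spelled GGGCGG, which binds SP1 family factors. The TATA box was spelled TATAAA and lies upstream of the start in some promoters. The E box was spelled CACGTG and is bound by MYC and USF factors. The CCAAT box was spelled as its name. The *SIRT1* sequence is the plus strand of chr10:67884406-67884655, ending at the base before the gene's start, and the *SIRT4* sequence is the plus strand of chr12:120302071-120302315, the part of a RefSeq window that lies before the gene's start. RefSeq gives a further *SIRT4* window at chr12:120291939-120292188, which held 12 CpG dinucleotides and no match to any motif searched, and it is not printed.
SIRT1: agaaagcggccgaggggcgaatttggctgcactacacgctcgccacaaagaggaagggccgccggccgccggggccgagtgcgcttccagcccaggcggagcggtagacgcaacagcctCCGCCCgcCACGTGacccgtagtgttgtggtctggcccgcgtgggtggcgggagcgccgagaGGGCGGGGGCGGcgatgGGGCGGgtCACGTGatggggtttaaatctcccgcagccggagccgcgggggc
SIRT4: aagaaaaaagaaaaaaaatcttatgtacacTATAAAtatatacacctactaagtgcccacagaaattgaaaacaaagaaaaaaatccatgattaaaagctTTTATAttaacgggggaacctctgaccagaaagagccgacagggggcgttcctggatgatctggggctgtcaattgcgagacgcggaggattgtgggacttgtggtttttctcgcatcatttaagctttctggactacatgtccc
The *SIRT1* window held 32 CpG dinucleotides, 4 GC boxes and 2 E boxes, none of them overlapping. The *SIRT4* stretch, of 245 bases, held 7 CpG dinucleotides, no GC box and 2 matches to the TATA box letters. Over 35116 RefSeq promoter windows of 250 bases, the median was 11 CpG dinucleotides. Of these windows, 42.6% held a GC box, 32.0% a CCAAT box, 10.7% a TATA box and 6.3% an E box. A match is a description of the letters and not a bound site.

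Levels of different genes were compared in TPM, for which counts were divided by the length listed for each gene (1222 bases for *SIRT4* to 6507 bases for *SIRT5*). *SIRT1* had the highest level at every stage, with 31.0 and 33.5 TPM in the PSC libraries, 21.02 and 21.03 TPM at D2, and 28.0 and 21.6 TPM in DE. In PSC it was followed by *SIRT5* (5.72 TPM ± 1.01, SD, n = 2) and *SIRT7* (5.29 ± 0.249), whose libraries overlapped, then *SIRT3* (1.73 ± 0.291), *SIRT2* (0.826 ± 0.307) and *SIRT4* (0.549 ± 0.0741). The lower *SIRT2* library, at 0.609 TPM, lay just above the higher *SIRT4* library, at 0.601 TPM, so these neighbours are not separated beyond their spread. At D2 the order was the same at the top, with *SIRT5* and *SIRT7* again overlapping, but *SIRT4* (1.29 ± 0.125 TPM) lay above *SIRT2* (0.811 ± 0.0912 TPM). In DE *SIRT7* (5.63 ± 0.337 TPM) lay above *SIRT5* (4.66 ± 0.823 TPM), and *SIRT3* (3.17 ± 0.559) overlapped *SIRT2* (2.66 ± 0.458), which overlapped *SIRT4* (1.79 ± 0.882). The mean level of *SIRT1* was 58.8 times that of the lowest of the 6 in PSC and 13.9 times in DE, so these genes were spread over a narrower range in DE. Genes encoded by mtDNA held 64.0% and 62.1% of the TPM in the PSC libraries, 58.7% and 58.6% at D2, and 52.5% and 54.0% in DE, which scales all other TPM values. Stages were therefore compared on TMM-scaled CPM, the counts of a gene relative to its library's scaled total.

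**Figure D1:**
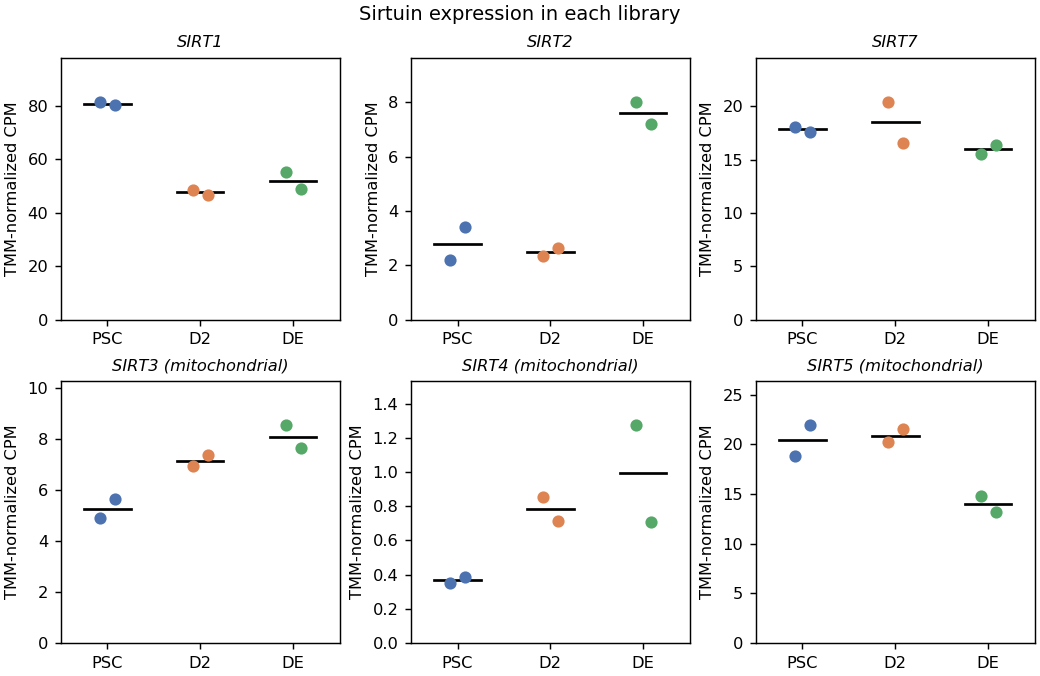
TMM-normalized CPM (vertical axis, from 0 in each panel) of 6 sirtuins in the 2 libraries of each stage (points), with the stage mean (line). The 2 PSC libraries of *SIRT1* lie above all others, the 2 DE libraries of *SIRT2* lie above all others, and the 2 DE libraries of *SIRT5* lie below all others.

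Expression was compared between stages with edgeR's quasi-likelihood test and Benjamini-Hochberg adjustment over 18126 genes, and a gene was called at an adjusted p under 0.05. All 6 sirtuins had enough counts to be tested. Between PSC and D2, 1 of the 6 was called, *SIRT1*, which was lower, while 49.9% of all genes tested were called (25.9% higher, 24.0% lower). In DE against PSC, 5 of the 6 were called, 3 higher (*SIRT2*, *SIRT3*, *SIRT4*) and 2 lower (*SIRT1*, *SIRT5*), beside 67.8% of all genes (35.1% higher, 32.7% lower). In DE against D2, 2 of the 6 were called, *SIRT2* higher and *SIRT5* lower, beside 59.3% of all genes (30.0% higher, 29.3% lower). *SIRT2* and *SIRT4* also had a fitted fold change of at least 2 in DE against PSC, which 39.4% of all genes had along with an adjusted p under 0.05. The median log2 fold change of all genes was 0.02 in both comparisons with PSC, and its median size without sign was 0.79 in DE against PSC. The sizes for the sirtuins ran from 0.16 for *SIRT7* to 1.41 for *SIRT2* and *SIRT4*. The comparisons share libraries, so their values stand side by side and are not independent. In bulk RNA, fewer cells that express a gene and less of its RNA per cell cannot be told apart.

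**Figure D2:**
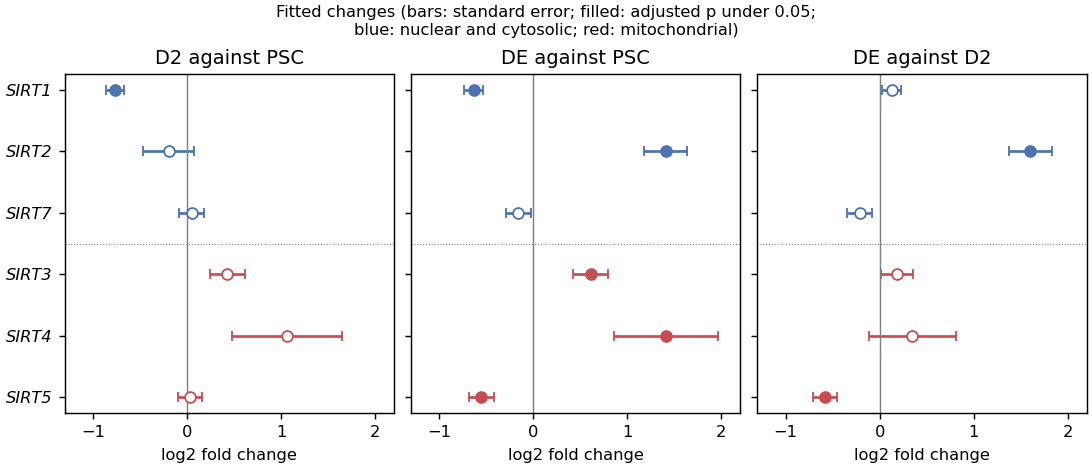
Fitted log2 fold change (horizontal axis) of 6 sirtuins in each comparison of stages, with edgeR's standard error as bars, filled where the adjusted p was under 0.05, nuclear and cytosolic members in blue and mitochondrial members in red. *SIRT1* is the lower filled point at D2, and in DE *SIRT2*, *SIRT3* and *SIRT4* lie to the right of 0 and *SIRT1* and *SIRT5* to the left.

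*SIRT1* encodes the best studied member, a nuclear deacetylase of histones and of transcription factors such as p53 and the FOXO proteins. It was at 81.6 and 80.2 CPM in PSC, 48.7 and 46.7 CPM at D2, and 55.4 and 48.8 CPM in DE. Both PSC libraries were the highest of the 6, and the D2 and DE libraries were close to each other. It was 1.70-fold lower at D2 (log2 fold change -0.76, standard error 0.0986, adjusted p = 2.5e-07 from edgeR) and 1.55-fold lower in DE (-0.63, standard error 0.0978, adjusted p = 2.1e-06), lower in all 4 pairs of libraries in each case. Between D2 and DE its log2 fold change was 0.13 (standard error 0.0996, adjusted p = 0.274).

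*SIRT2* encodes the cytosolic tubulin deacetylase, which also enters the nucleus around mitosis. Its counts were low before the DE stage, with 25 and 53 reads in PSC and 36 and 41 at D2, against 132 and 112 in DE. In CPM it was at 2.19 and 3.40 in PSC, 2.36 and 2.65 at D2, and 8.02 and 7.19 in DE. The PSC and D2 libraries overlapped and both DE libraries lay above them. It was 2.65-fold higher in DE than in PSC (log2 fold change 1.41, standard error 0.228, adjusted p = 4.5e-06 from edgeR) and 3.03-fold higher than at D2 (1.60, standard error 0.228, adjusted p = 9.0e-07). At D2 against PSC its log2 fold change was -0.19 (standard error 0.270, adjusted p = 0.583). *SIRT2* was also the only member to pass a fold-change rule modelled on the study's. As applied here, it asks that the mean TPM of the stages, each with 0.1 added, differ by a ratio of 2 or more, with a mean above 2 TPM in at least 1 of the stages compared. The study adds the same constant to TPM in its plots; whether its ratio did is not stated, and the choice of at least 1 stage was made here. Its ratio was 2.98 in DE against PSC and 3.02 in DE against D2. *SIRT4*, with ratios of 2.91 in DE and 2.13 at D2 against PSC, missed the TPM limit and passed when TPM was computed without mtDNA-encoded genes, with 2.47 and 2.03, or without the limit. The share of all genes that passed this fold-change rule is not given here, so the sirtuins are not set against it.

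*SIRT7* encodes the nucleolar member, a histone deacetylase tied to transcription of ribosomal RNA genes. It was at 18.1 and 17.6 CPM in PSC, 20.4 and 16.5 CPM at D2, and 15.6 and 16.4 CPM in DE. The D2 libraries spanned the PSC ones, and the DE libraries were the lowest of the 6 by a small margin. No comparison was called, with a log2 fold change of 0.05 at D2 (standard error 0.133, adjusted p = 0.774 from edgeR), -0.16 in DE (0.134, adjusted p = 0.297) and -0.21 in DE against D2 (0.132, adjusted p = 0.170). With upper quartile scaling, which moved the median of all genes by -0.17, it was lower in DE than in PSC (-0.33, adjusted p = 0.0313, the lowest across alternatives, with 0.708 the highest) and than at D2 (-0.38, adjusted p = 0.0141, the lowest, with 0.825 the highest).

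*SIRT3* encodes the main mitochondrial deacetylase, whose substrates include SOD2, IDH2 and subunits of the respiratory chain. It was at 4.90 and 5.65 CPM in PSC, 6.94 and 7.37 CPM at D2, and 8.57 and 7.64 CPM in DE, from 56 and 88, 106 and 114, and 141 and 119 reads. No stages overlapped, and each later stage lay above the one before it. It was 1.53-fold higher in DE than in PSC (log2 fold change 0.61, standard error 0.183, adjusted p = 0.00453 from edgeR, higher in 4 of 4 pairs of libraries). With DESeq2 the value was 0.64 with an adjusted p of 0.0649 (lowest 0.00306, highest 0.0649 across alternatives), which ended the call. The log2 fold change at D2 relative to PSC was 0.43 (standard error 0.187, adjusted p = 0.0572), and it passed the threshold when libraries were scaled by their size only (0.54, adjusted p = 0.0326) and with a minimum of 10 counts in every library (0.46, adjusted p = 0.0416). With DESeq2 its adjusted p was 0.304, the highest across alternatives, and without PSC replicate 1 it was 0.242.

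*SIRT4* encodes a mitochondrial ADP-ribosyltransferase and lipoamidase that acts on glutamate dehydrogenase and the pyruvate dehydrogenase complex. It had few reads in every library, with 4 and 6 in PSC, 13 and 11 at D2, and 21 and 11 in DE. In CPM this was 0.350 and 0.385, 0.851 and 0.711, and 1.28 and 0.706. Both PSC libraries were the lowest, and the DE libraries spanned the D2 ones. It was 2.66-fold higher in DE than in PSC (log2 fold change 1.41, standard error 0.555, adjusted p = 0.0267 from edgeR, higher in 4 of 4 pairs of libraries). The call was lost without PSC replicate 1 (1.36, adjusted p = 0.102), without PSC replicate 2 (1.49, adjusted p = 0.110) and without DE replicate 1 (0.93, adjusted p = 0.299), and with DESeq2 (1.45, adjusted p = 0.199) and upper quartile scaling (1.24, adjusted p = 0.0505), and across alternatives the adjusted p ran from 0.0195 to 0.299. Its log2 fold change at D2 relative to PSC was 1.06 (standard error 0.582, adjusted p = 0.133).

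*SIRT5* encodes the mitochondrial desuccinylase, whose substrates include carbamoyl phosphate synthetase and SHMT2. It was at 18.8 and 22.0 CPM in PSC, 20.2 and 21.5 CPM at D2, and 14.8 and 13.2 CPM in DE. The D2 libraries lay within the range of the PSC ones, and both DE libraries lay below all 4. It was 1.47-fold lower in DE than in PSC (log2 fold change -0.55, standard error 0.132, adjusted p = 0.000609 from edgeR) and 1.49-fold lower than at D2 (-0.58, standard error 0.130, adjusted p = 0.000404), lower in all 4 pairs each time. Its log2 fold change at D2 relative to PSC was 0.03 (standard error 0.128, adjusted p = 0.876).

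The mitochondrial members therefore did not share a direction in DE: 2 were called higher and 1 lower, and of the others 1 was called higher and 1 lower, where 67.8% of all genes were called. With DESeq2 both calls of higher mitochondrial members (*SIRT3*, adjusted p = 0.0649, and *SIRT4*, adjusted p = 0.199) were lost. Their median log2 fold change was 0.61 in DE against PSC, beside -0.16 for the other 3 members and 0.02 for all genes. At D2 against PSC the medians were 0.43 and -0.19, and in DE against D2 0.18 and 0.13. With 3 genes in each set a median is the value of 1 gene (*SIRT3* among the mitochondrial members in each comparison), so these medians are descriptions with no test. Without *SIRT4*, under the minimum of 10 counts in every library, the mitochondrial median exceeded that of the others by 0.19 in place of 0.77 in DE against PSC and by 0.42 in place of 0.62 at D2, and in DE against D2 the difference was -0.33. Summed over the 3 mitochondrial members, 24.05 and 28.0 CPM were counted in PSC, 28.0 and 29.6 CPM at D2, and 24.6 and 21.5 CPM in DE, while *SIRT1*, *SIRT2* and *SIRT7* together fell from 102 and 101 CPM to 71.5 and 65.8 CPM at D2 and were at 78.9 and 72.4 CPM in DE.

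Shares within the family do not depend on how a library is scaled. *SIRT1* held 70.8% and 68.4% of the summed TPM of the 6 genes in PSC, 54.9% and 55.1% at D2, and 58.3% and 57.8% in DE. The mitochondrial members held 16.1% and 18.3% in PSC, 26.0% and 28.1% at D2, and 23.3% and 21.5% in DE. A share also moves with the other members. At D2 against PSC *SIRT1* was called lower and no mitochondrial member was called. The 3 stages did not overlap for either share. The ratio of *SIRT5* to *SIRT3* in TPM was 3.28 and 3.32 in PSC, 2.488 and 2.493 at D2, and 1.471 and 1.470 in DE, so that for this ratio the libraries of a stage lay far closer to each other than to any other stage. The ratio of *SIRT1* to *SIRT2* was 50.9 and 32.1 in PSC, 28.1 and 24.0 at D2, and 9.41 and 9.25 in DE. The ratio of *SIRT1* to *SIRT3* was 20.3 and 17.3 in PSC, 8.53 and 7.71 at D2, and 7.86 and 7.77 in DE, so here the DE libraries lay within the range of the D2 ones. With 2 libraries per stage, an exact two-sided permutation test of a single value cannot give a p below 0.333, and none was made.

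**Figure D3:**
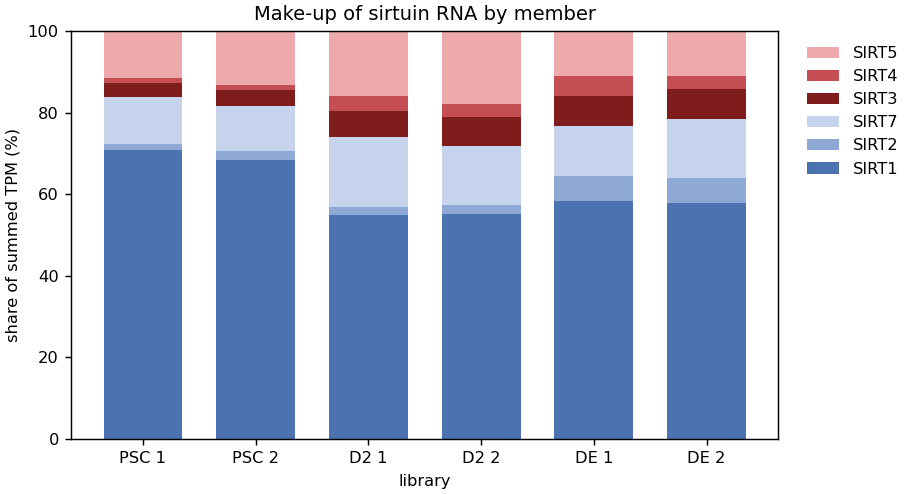
Share of the summed TPM of 6 sirtuins (vertical axis, percent) held by each member in each library, nuclear and cytosolic members in blue and mitochondrial members in red. *SIRT1* takes 68.4% or more in the PSC libraries and 58.3% or less in the others, and the part of *SIRT2* is widest in DE, at 6.19% and 6.25%.

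The strand setting of the counting is not given in the sources used here, so reads from overlapping genes on either strand cannot be told apart. *SIRT3* and *PSMD13*, a subunit of the proteasome's regulatory particle, start 35 bases apart on opposite strands. *PSMD13* was at 74.6 and 80.9 CPM in PSC, 72.5 and 71.0 CPM at D2, and 96.6 and 111 CPM in DE. It rose in DE (log2 fold change 0.42, standard error 0.0979, adjusted p = 0.000510 from edgeR), while at D2 it was at -0.12 (adjusted p = 0.340), beside 0.43 for *SIRT3*. *SIRT2* and *NFKBIB*, an inhibitor of NF-kappaB, start 162 bases apart on opposite strands and overlap by 163 bases. *NFKBIB* was at 8.22 and 5.78 CPM in PSC, 5.89 and 4.59 CPM at D2, and 11.3 and 8.99 CPM in DE. It also rose in DE, by a log2 fold change of 0.56 against PSC (standard error 0.189, adjusted p = 0.0107) and 0.95 against D2 (adjusted p = 0.000118). The end of *SIRT3* shares 84 bases with *RIC8A*, a chaperone of G protein alpha subunits, which rose at D2 (0.44, adjusted p = 0.00318) and in DE (1.11, adjusted p = 1.7e-09). *SIRT7* shares 3054 bases on the same strand with *MAFG*, a small MAF transcription factor, which fell at D2 (-0.40, adjusted p = 0.00659) and was at -0.14 in DE (adjusted p = 0.292). *RNU6-1088P*, which overlaps *SIRT4* by 12 bases, had 0 counts in every library. The lncRNA gene ENSG00000261071 overlaps *SIRT5* by 1058 bases on the opposite strand and was not analysed here.

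The 3 genes nearest to each sirtuin in profile were found among the tested genes with a mean of at least 5 CPM, by the Euclidean distance between log2 CPM profiles centred over the 6 libraries. This is a description, since profiles over 3 stages resemble each other readily. *SIRT1* was nearest to *TAF4*, a subunit of TFIID (distance 0.0788), then *PIAS1* and *ZBTB43*. *TAF4* was at 33.8 and 34.9 CPM in PSC, 20.8 and 19.5 CPM at D2, and 24.2 and 21.3 CPM in DE, the same fall at D2 and small gap to DE. *SIRT2* was nearest to *ODC1*, the rate-limiting enzyme of polyamine synthesis (0.204), then *FAF1* and *RSPRY1*. *ODC1* was at 39.7 and 61.6 CPM in PSC, 39.0 and 44.7 CPM at D2, and 121 and 124 CPM in DE. Its PSC libraries also lay far apart, a likeness that choosing the nearest profile favours. *SIRT3* was nearest to *SNAPC3* (0.0892), *AC026470.1* and *SSRP1*, and *SIRT5* to *GPRC5B* (0.0967), *STAG3L3* and *ATP13A1*. *SIRT4* was nearest to *CANT1* (0.177), *TRAK1* and *MOCS3*, and *SIRT7* to *GALNS* (0.104), *CDK10* and *CCHCR1*. The *SIRT4* profile rests on 4 to 21 reads per library.

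NAD is made from nicotinamide by NAMPT and the NMNAT enzymes, from nicotinic acid by NAPRT, from nicotinamide riboside by the NMRK kinases, and from tryptophan by the kynurenine pathway. Of 15 genes of NAD synthesis tested, 4 rose and 6 fell at D2 relative to PSC, and 7 were higher and 5 lower in DE. These calls were 66.7% of the list at D2 and 80% in DE, where 49.9% and 67.8% of all genes tested were called. Their median log2 fold change was -0.18 at D2 and 0.31 in DE. *NAMPT*, the rate-limiting enzyme of the salvage route, was at 182 and 161 CPM in PSC, 118 and 118 CPM at D2, and 217 and 209 CPM in DE. It fell at D2 (log2 fold change -0.54, standard error 0.0968, adjusted p = 3.8e-05 from edgeR) and rose in DE above PSC (0.31, standard error 0.0954, adjusted p = 0.00522). The largest rise was that of *NMRK1*, from 4.29 and 6.68 CPM in PSC through 24.3 and 24.8 CPM to 45.9 and 42.7 CPM (log2 fold change for DE 2.98, standard error 0.150, adjusted p = 3.1e-16). *NAPRT* (1.49) and *AFMID*, the kynurenine formamidase (1.14), also rose in DE. Genes of the list with a mean under 5 CPM in both PSC and DE were called in both directions. Of these, *NMNAT1* (2.06) and *KYNU* (1.07) rose in DE, and *NMNAT2* (-2.54), *NMNAT3* (-1.59) and *TDO2* (-3.57) fell. *IDO1*, which opens the route from tryptophan, fell from 15.1 and 11.7 CPM to 0.720 and 0.323 CPM at D2 and 0.608 and 0.578 CPM in DE (a change of -4.47 on the log2 scale, standard error 0.286, adjusted p = 7.5e-14). *PNP*, which splits nicotinamide riboside and other nucleosides, fell in DE, from 160 and 155 CPM to 46.4 and 56.8 CPM (-1.61, adjusted p = 8.1e-14), with 0.05 at D2 (adjusted p = 0.699). At D2, *QPRT* fell (-0.54) and *NADSYN1* rose (0.31). The 10 calls of this list at D2 became 5 without PSC replicate 2 and 4 with DESeq2. With a fold change of at least 2 also required, 5 of the 10 remained at D2 and 10 of 12 in DE. The latter are 10 of 15 tested, where 39.4% of all genes passed both limits in DE. For D2 no such share is given.

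Of 5 genes of NAD phosphorylation, transport and nicotinamide methylation tested, 2 were higher and 1 lower at D2, and 3 were higher and 1 lower in DE (median log2 fold change 0.17 and 0.78). That is 60% and 80% of the list, beside 49.9% and 67.8% of all genes. A fold change of at least 2 was reached by 1 of the 3 called at D2 and 2 of the 4 called in DE. In DE that is 2 of 5 tested, beside 39.4% of all genes, and the share of all genes at D2 is not given. *SLC25A51*, the carrier that brings NAD into mitochondria, was at 3.94 and 4.88 CPM in PSC, 4.91 and 4.07 CPM at D2, and 9.78 and 9.76 CPM in DE (a change of 1.13 on the log2 scale, standard error 0.189, adjusted p = 7.0e-06 from edgeR). *NADK2*, the mitochondrial NAD kinase, rose by 0.77 at D2 and 0.78 in DE, whereas *NADK*, its cytosolic counterpart, was at -0.47 at D2 and -0.93 in DE (adjusted p = 1.9e-08). Of 9 other NAD consumers (PARP enzymes, tankyrases, CD38, BST1 and SARM1), 2 were higher and 4 lower at D2 and 3 were higher and 3 lower in DE, which is 66.7% of the list each time, beside 49.9% and 67.8% of all genes. *PARP2* fell at D2 (-0.82) and in DE (-0.27), and *TNKS* and *PARP4* fell at D2 (-0.50 and -0.35) and rose in DE (0.27 and 0.29). *TNKS2* fell in DE (-0.34). The calls of this list in DE numbered 6, and 1 with DESeq2, and 2 to 3 without PSC replicate 1, PSC replicate 2, DE replicate 1 or DE replicate 2. Of the 6 called at each stage, 2 had a fold change of at least 2. For DE this is 2 of 9 tested, below the 39.4% of all genes, and for D2 no share of all genes is given.

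SIRT1 is held back by CCAR2 and stimulated by the product of *RPS19BP1*. Both genes rose in DE, *CCAR2* from 35.7 and 35.0 CPM to 51.5 and 45.8 CPM (log2 fold change 0.46, standard error 0.105, adjusted p = 0.000348 from edgeR) and *RPS19BP1* from 38.6 and 38.4 CPM to 50.7 and 61.0 CPM (0.54, standard error 0.111, adjusted p = 0.000125). At D2 they were at 0.01 (adjusted p = 0.947) and 0.16 (adjusted p = 0.264). Of 21 partners and substrates of nuclear and cytosolic sirtuins tested, 5 were higher and 7 lower at D2, and 6 were higher and 8 lower in DE, with medians of -0.08 and -0.12. The share called was 57.1% at D2 and 66.7% in DE, near the 49.9% and 67.8% of all genes. *FOXO3*, a transcription factor that SIRT1 deacetylates, rose from 2.89 and 3.02 CPM through 6.55 and 7.17 CPM to 20.9 and 15.3 CPM (log2 fold change in DE 2.61, standard error 0.193, adjusted p = 1.8e-12), and *FOXO1* rose at D2 (0.48). The mitotic regulator *CDC20* rose in DE (0.74), whereas *BUB1B*, the checkpoint kinase that SIRT2 stabilizes, fell at D2 and in DE (-1.09 and -1.39). *ACSS2*, the cytosolic acetyl-CoA synthetase activated by SIRT1, fell at both stages (-1.36 and -1.25), as did *NBN*, of DNA repair (-0.63 and -0.94). *HIF1A* fell at D2 (-1.09) and was at -0.12 in DE (adjusted p = 0.291). *SUV39H1*, a histone methyltransferase, rose at D2 (0.52). Without PSC replicate 1 the calls of this list at D2 numbered 6 instead of 12. With a fold change of at least 2 also required, 4 remained at D2, and 3 of 14 in DE. These 3 of 21 tested lie below the 39.4% of all genes that passed both limits in DE. No such share is given for D2.

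Of 22 substrates of mitochondrial sirtuins tested, 6 were higher and 7 lower at D2, and 7 were higher and 5 lower in DE, with medians of -0.14 and 0.10. The share called was 59.1% at D2, where it was 49.9% over all genes, and 54.5% in DE, where it was 67.8%. Among those with a mean of at least 5 CPM in PSC or DE, the largest rises in DE were those of *ALDH2*, the mitochondrial aldehyde dehydrogenase (log2 fold change 1.87, standard error 0.204, adjusted p = 5.0e-09 from edgeR), *MLYCD*, malonyl-CoA decarboxylase and a SIRT4 substrate (1.53, standard error 0.128, adjusted p = 2.5e-11), and *PDHA1*, a subunit of pyruvate dehydrogenase (1.12, standard error 0.0947, adjusted p = 3.1e-11). *PDHA1* was at 64.7 and 70.6 CPM in PSC, 54.4 and 54.5 CPM at D2, and 145 and 150 CPM in DE, so it fell at D2 (-0.31, adjusted p = 0.00883) before it rose. The largest falls in DE, under the same limit, were those of *MCCC2*, of leucine breakdown (-0.92), *NDUFA9*, of complex I (-0.76), and *IDE* (-0.36). At D2, *SHMT2*, a SIRT5 substrate, rose (0.66), as did *IDH2* (0.53) and *PPIF* (0.44), and *NDUFA9* (-0.78) and *MCCC2* (-0.49) fell. The 13 calls of this list at D2 became 7 without PSC replicate 2 and 8 without D2 replicate 1 or D2 replicate 2, and 7 with DESeq2. None of the 13 had a fold change of at least 2, and no share of all genes at that limit is given for D2. In DE 5 of the 12 called had one, all of them higher. That is 5 of 22 tested, beside 39.4% of all genes with such a call. Of 10 acetyltransferases, which add the groups that sirtuins remove, 1 was higher and 3 lower at D2, and 2 were higher and 4 lower in DE, or 40% and 60% of the list beside 49.9% and 67.8% of all genes. *KAT7*, a histone acetyltransferase, fell from 329 and 327 CPM through 104 and 109 CPM to 63.5 and 60.4 CPM (log2 fold change in DE -2.40, standard error 0.0984, adjusted p = 2.9e-18). *KAT6B* (-1.23) and the RNA acetyltransferase *NAT10* (-0.57) also fell in DE, and *KAT2B* (1.80) and *CREBBP* (0.58) rose. A fold change of at least 2 was found for 3 of the 4 acetyltransferases called at D2 and 3 of the 6 called in DE. In DE this is 3 of 10 tested, beside 39.4% of all genes, with no share of all genes given for D2.

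**Figure D4:**
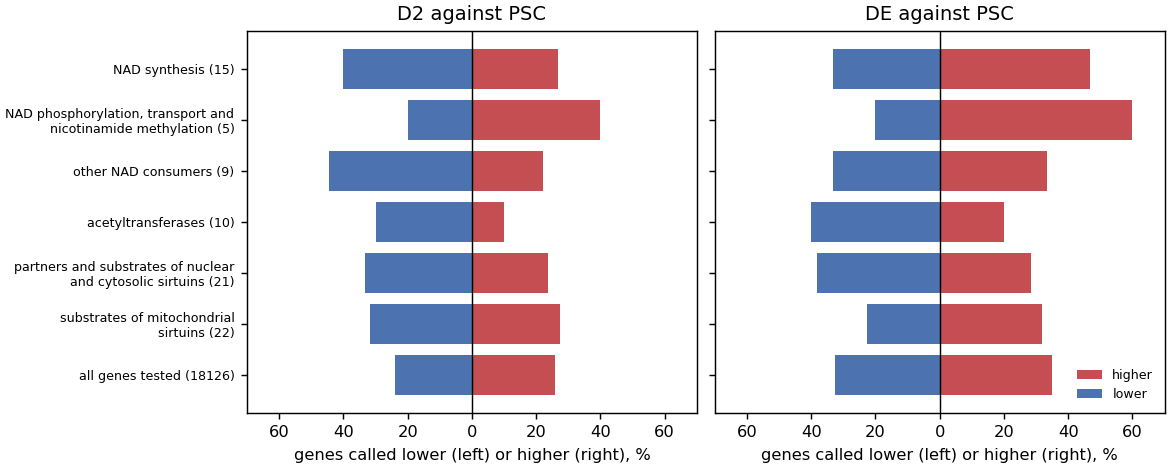
Percent of the genes tested in each list (number in parentheses) that were called higher (red, right) or lower (blue, left) with an adjusted p under 0.05, at D2 and in DE against PSC, with all 18126 genes tested at the bottom. Every list holds calls in both directions at both stages.

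The stage labels were checked on markers. *POU5F1*, *SOX2* and *NANOG* together were at 661 and 797 CPM in PSC, 776 and 719 CPM at D2, and 215 and 221 CPM in DE. *FOXA2*, *SOX17* and *CXCR4* together were at 2.27 and 3.34 CPM, 89.5 and 84.8 CPM, and 826 and 816 CPM. The pluripotency markers went different ways at D2 against PSC. *SOX2* fell (log2 fold change -0.93, adjusted p = 2.8e-09 from edgeR) and *NANOG* rose (0.30, adjusted p = 0.0128). *POU5F1*, the most abundant, was at 0.19 (adjusted p = 0.169). Markers of other lineages moved with the stage too. The 6 genes of the primitive streak and mesoderm list, with *EOMES* the most abundant from D2 on, summed to 12.8 and 12.2 CPM in PSC, 844 and 925 CPM at D2, and 585 and 524 CPM in DE, with *MESP1* at 0 in the PSC and DE libraries. The 2 ectoderm genes summed to 148 and 146 CPM in DE, nearly all *PAX6*, with *SOX1* at 0 in DE replicate 2, and to 2.38 CPM or less elsewhere. The 4 trophectoderm and extraembryonic genes summed to 101 and 84.9 CPM in DE, nearly all *GATA3*, with *KRT7* at 0 in both and *CDX2* at 0 in DE replicate 1, and to 9.50 CPM or less in PSC and at D2. Their part in the sirtuin values was not tested.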

How the data were processed

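RNA-seq was analysed for 6 libraries of HUES8 cells, 2 at each of 3 stages. By the study's methods, the RNA came from the precipitate that remained once metabolites had been extracted. Its effect on RNA quality was not tested. The authors ran FastQC on the reads, used HISAT2 (version 2.1.1 per the submitters' processing notes) for alignment to hg38 and featureCounts for counting, and deposited unnormalized counts per gene beside a gene length. The annotation, the strand setting and the treatment of reads that map to several places are not given in the sources used here. Sampling noise was exceeded between libraries of every stage, most in DE (chi-square per degree of freedom 4.11 in PSC, 4.10 at D2 and 8.89 in DE).

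Counts were fitted with edgeR 4.0.16 in R 4.3.3: filterByExpr, TMM factors of 0.926 to 1.06, and glmQLFit and glmQLFTest on all 6 libraries, with 3 residual degrees of freedom and adjustment over 18126 genes. The quasi-likelihood fit draws the spread of each gene toward a trend over all genes tested. A p-value therefore rests on more than the gene's own libraries. The standard error is the log2 fold change over the square root of the F statistic. A fold-change rule modelled on that of the study was applied to TPM. The fit was also run on simulated counts with 1 common spread for all genes. Of 67 genes given a 1.5-fold change in DE, 41 were called, and 64 of 67 at 2-fold and 66 of 66 at 4-fold. Among the unchanged genes 7 were called. Genes at the level of *SIRT4* were not among those changed.

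The sirtuins were taken by gene family and not by their values, but the choice of this family, the lists and the tests were made with earlier results of these data known. Named genes are all sirtuins, *NAMPT*, *CCAR2* and *RPS19BP1*, up to 3 largest rises and 3 largest falls per list at D2 and in DE with an adjusted p under 0.05, the same direction in all 4 pairs of libraries and 5 CPM or more on average in 1 of the 2 stages compared, the 3 nearest profiles, and genes that overlap a sirtuin or start within 1000 bases of it on the opposite strand. Among the list members that did not pass the filter on low counts were *KMO*, *NNMT*, *PCK1*, *ACSS1* and *OTC*. In the NAD synthesis list, genes called in DE against PSC below the CPM limit are named too. Some other list members are counted but not reported by name here. Alternatives were DESeq2 1.42.0, other scalings and filters, the compared stages alone, a replicate block, and each library left out. Positions are from GENCODE version 44. Python 3.11.15, numpy 2.4.6, pandas 2.3.3 and matplotlib 3.10.9 were used.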

Additional observations from a re-analysis of the deposited data

How the results depend on the processing

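Of 267 alternative values for single sirtuins, 251 kept the direction and the side of the threshold, and of 45 alternative counts of sirtuins called, 42 stayed within 1.5 times. The calls of *SIRT1*, *SIRT2* and *SIRT5* held under all alternatives. At D2 against PSC, 2 sirtuins were called with library size alone as the scaling, which moved the median of all genes by 0.11, and 2 with a minimum of 10 counts in every library. In DE against PSC, 3 were called with DESeq2. By the fold-change rule on TPM, 1 passed at D2 (0 as given) and 2 in DE (1 as given) with TPM taken over genes not encoded by mtDNA or with no TPM limit, in each case by adding *SIRT4*. No share of all genes is given for this rule under any setting. The median of SIRT3 to SIRT5 minus that of the other sirtuins was 0.42 at D2, 0.19 in DE and -0.33 in DE against D2 with a minimum of 10 counts, which left *SIRT4* out. With each library left out in turn it was 0.52 to 0.78 at D2, 0.65 to 0.91 in DE and -0.18 (without DE replicate 1) to 0.13, and -0.02 without D2 replicate 1, in DE against D2. Log2 fold changes that changed sign, none of them called, were with single libraries left out those of *SIRT2* at D2 (-0.45 to 0.19, the latter without PSC replicate 2), *SIRT5* at D2 (-0.077 without PSC replicate 1 to 0.15, and -0.013 without D2 replicate 2), *SIRT7* at D2 (-0.10 without D2 replicate 1 to 0.20) and *SIRT4* in DE against D2 (-0.13 without DE replicate 1 to 0.72), and with upper quartile scaling that of *SIRT1* in DE against D2 (-0.045). The cause of these changes was not tested. With the replicate block the numbers of sirtuins called were 1 at D2, 5 in DE and 2 in DE against D2, and no call changed. Same-numbered libraries did not deviate together (correlations -0.0109, -0.0384 and -0.0433). By CPM in place of TPM, SIRT3 to SIRT5 held 20.4% in PSC and 29.6% at D2 of the sum over the 6 genes. Of 108 alternative counts for the lists, 86 stayed within 1.5 times. The counts of *SIRT4* and of *SIRT2* before DE limit what could be seen for them. When 1 library of a stage is left out, the lone library is assumed to vary like the others.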
